A study of Rattus norvegicus with 3 samples.

Results

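Receptors that raise cyclic AMP were examined in the medullary thick ascending limb (mTAL) of the rat kidney, a salt-reabsorbing, water-tight part of the tubule. The members were the receptors of vasopressin (Avpr2), calcitonin (Calcr), parathyroid hormone (Pth1r), glucagon (Gcgr) and glucagon-like peptide 1 (Glp1r) and the beta-1 adrenergic receptor (Adrb1). They were found as every probe set whose only gene symbol in the platform's probe-to-gene table was one of these, which gave 9 probe sets of 6 genes, out of 20826 probe sets of 14217 genes. Avpr2, Calcr and Pth1r had 2 probe sets each, and the other 3 genes had 1 each. This rule used no measured value, but the members were chosen with earlier results of these data known.

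The study profiled 1 group of 3 arrays (replicates 1, 2 and 3), with no other tissue, treatment or untreated control. Each sample was mTAL from male Sprague-Dawley rats aged 7 to 8 weeks. All rats had received furosemide (1 mg), a loop diuretic, and heparin (250 u) by intraperitoneal injection 30 min before death, so no sample lacks either agent. The tissue was perfused and digested with collagenase and hyaluronidase and taken from a gradient of 33.3% Percoll, and the labels do not say whether a sample was 1 rat or a pool.

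These receptors couple to the stimulatory G protein Gs, which activates adenylyl cyclase. The cyclic AMP formed activates protein kinase A, and in the thick limb this raises sodium chloride transport through the cotransporter Slc12a1. In the rat, vasopressin, glucagon and calcitonin are known to raise cyclic AMP in the medullary part of the limb, while parathyroid hormone is known mainly from the cortical part and from the proximal tubule. Avpr2 and Adrb1 belong to the rhodopsin-like receptors, and Calcr, Pth1r, Gcgr and Glp1r to the secretin-like receptors, which bind large peptide hormones.

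The values are linear signals of probe sets, and the arrays shared 1 overall scale, with a trimmed mean of about 1000 units each. A probe set was called detected when its log2 signal exceeded the array cutoffs in limma at an adjusted p of 0.05, over all probe sets, and a gene when its probe set with the higher mean was. The cutoff was the 95th percentile of 76 genes known from other tissues, at 424, 416 and 427 units on replicates 1, 2 and 3. All 14 measured markers of the thick ascending limb (TAL) were detected, with a median 4.53 log2 units above the cutoff. The preparations differed in markers of other cells. The summed signal of 24 proximal tubule markers was 7600, 27690 and 86670 units on replicates 1, 2 and 3, and that of 10 principal cell markers 10120, 15420 and 25650. Of the proximal tubule markers 2 were detected, and of the principal cell markers 3. For 5 thin limb markers, of which 4 were detected, the sums were 26970, 71500 and 40740 units. For 10 endothelial markers, of which 8 were detected, they were 16180, 27760 and 25220 units. The TAL markers summed to 271900, 264600 and 248100 units. For Actb, the 3' control probe set exceeded the 5' one by 1.48, 1.18 and 1.95 log2 units, a ratio that is high in degraded RNA, and for Gapdh by 0.51, 0.43 and 0.60.

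Transcripts of Gcgr, Avpr2 and Pth1r were detected, that of Calcr lay at the cutoff, and the signals of Adrb1 and Glp1r lay below it on every array. By gene, 3 of 6 receptors were detected, beside 51.8% of all genes. By probe set, 3 of 9 were detected, beside 43.5% of all probe sets, so the receptors' share was no higher than that of the array at large. The median of the 6 receptors was 1.17 log2 units above the cutoff, against 0.65 for all genes. Hybridisation strength differs between probe sets, so the signals give no order of abundance among the receptors. In such bulk tissue, fewer cells of a type and less RNA per cell cannot be told apart.

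**Figure D1:**
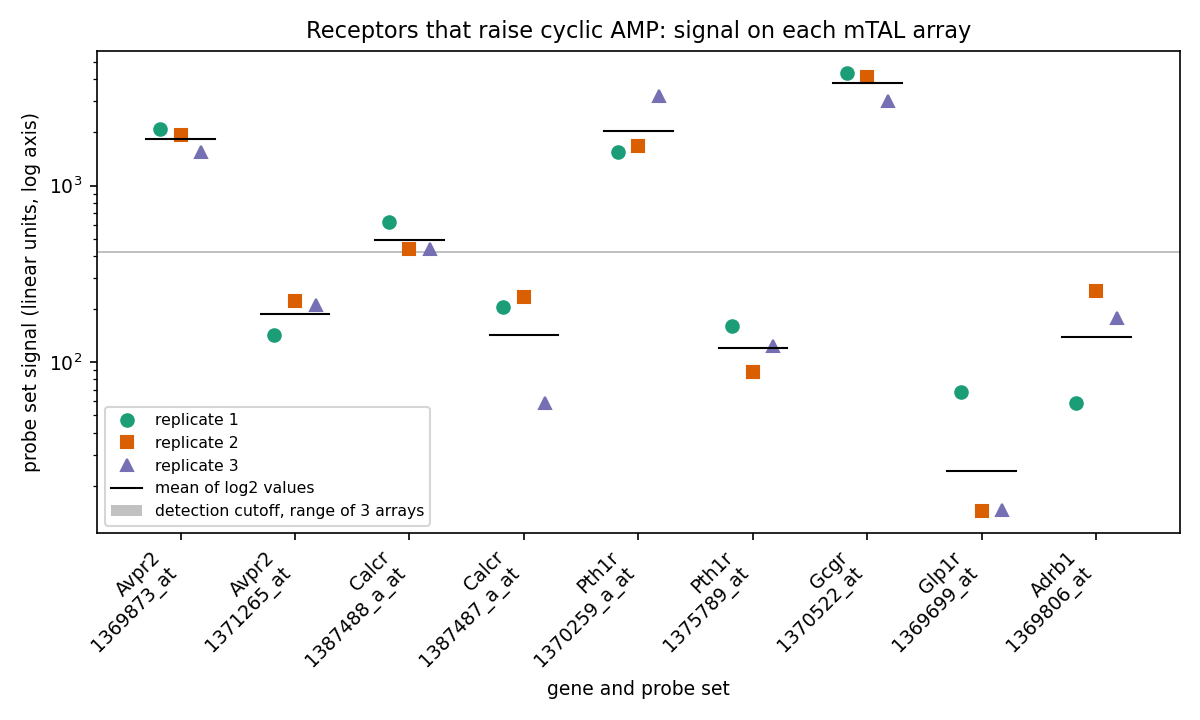
Signal of each of the 9 probe sets (horizontal axis) on each of the 3 mTAL arrays, in linear units on a log axis. Points are arrays, black lines are means of the log2 values, and the grey line is the range of the detection cutoff over the arrays, 416 to 427 units. The first probe sets of Avpr2 and Pth1r and the probe set of Gcgr lie above the cutoff on all 3 arrays, and the second probe sets of Avpr2, Calcr and Pth1r lie below it.

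The receptor of vasopressin, the antidiuretic hormone, had 1 probe set well above the cutoff. Avpr2 probe set 1369873_at had signals of 2085, 1930 and 1552 units on replicates 1, 2 and 3, a mean of 1856 ± 274 (SD, n = 3). These were 4.92, 4.64 and 3.64 times the cutoff of their array, and replicate 3 was the lowest. The mean log2 signal was 2.13 ± 0.14 (SE) above the cutoff (limma, adjusted p = 0.000663). On the arrays it ranked at percentiles 80.3, 78.8 and 74.9 of all probe sets.

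The second Avpr2 probe set, 1371265_at, had signals of 143, 223 and 210 units, all below the cutoff (mean difference -1.16 log2 units, limma adjusted p = 1). Here replicate 1 was the lowest, but at a level below the cutoff the order of the arrays is not a measured difference. The detection of Avpr2 therefore rests on 1 of its 2 probe sets. Cela1, an other-tissue gene of the list that set the cutoff, had a similar signal (1800 ± 324 units, SD, n = 3). It lay 2.08 log2 units above the cutoff, so such a level is not particular to genes known from the thick limb. With the cutoff set by the 99th percentile Avpr2 lay 0.47 log2 units above and was not called (limma, adjusted p = 0.127).

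Avpr2 is also known from the principal cells of the collecting duct, whose markers varied between the arrays. The principal cell markers were highest on replicate 3, where Avpr2 was lowest. For replicate 3 minus replicate 1, with arrays centred on their median gene, the median of the 10 markers was 1.57 log2 units, while Avpr2 had -0.54. Of these markers 9 of 10 were higher on replicate 3, and 3 of 10 were detected. The collecting duct water channel Aqp2 had signals of 1433, 3695 and 7803 units. The TAL markers had a median difference of -0.26 between the same arrays, with 3 of 14 higher on replicate 3, and the median of all genes was -0.11. The part of collecting duct cells in the Avpr2 signal was not tested.

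The glucagon receptor was above the cutoff on all arrays. Gcgr probe set 1370522_at had signals of 4356, 4137 and 3012 units on replicates 1, 2 and 3, a mean of 3835 ± 721 (SD, n = 3). They were 7.06 to 10.3 times the cutoff of their array, and replicate 3 was again the lowest. The mean log2 signal was 3.16 ± 0.17 (SE) above the cutoff (limma, adjusted p = 0.000372), at percentiles 90.9, 90.6 and 86.1 of all probe sets. The centred signal of replicate 3 minus that of replicate 1 was -0.65 log2 units, a ratio of 0.637.

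Of the 6 receptors, Gcgr alone stayed detected with the cutoff at the 99th percentile, where Gcgr stood beside 25.5% of all genes. Its adjusted p remained between 0.00441 and 0.00622 when each array was left out in turn (limma). The array held 1 probe set for Gcgr, so no second measure of this gene could be set beside it.

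The parathyroid hormone receptor was detected by 1 of its 2 probe sets and was highest on the array with the most proximal tubule signal. Pth1r probe set 1370259_a_at had signals of 1549, 1684 and 3194 units on replicates 1, 2 and 3, a mean of 2142 ± 914 (SD, n = 3). Replicates 1 and 2 were close to each other, and replicate 3 stood apart from both. The mean log2 signal was 2.26 ± 0.27 (SE) above the cutoff (limma, adjusted p = 0.00299), at percentiles 74.7, 76.2 and 86.9. Probe set 1375789_at had 160, 87.9 and 123 units (mean difference from the cutoff -1.81 log2 units, limma adjusted p = 1). It lay below the cutoff on every array, so its order of the arrays is not a measured difference.

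The detection of Pth1r therefore also rests on 1 probe set. Its level of 2.26 log2 units above the cutoff was near that of the other-tissue gene Cela1 (2.08). With the cutoff set by the 99th percentile Pth1r was not called (0.61 log2 units above, limma adjusted p = 0.206).

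The proximal tubule is a known site of Pth1r, and its markers were also highest on replicate 3. The centred signal of Pth1r was 0.93 log2 units, or 1.90-fold, higher on replicate 3 than on replicate 1. Of the 9050 detected probe sets, 2.63% had a difference at least as large, and their median was 0.22 in either direction. The proximal tubule markers differed by a median of 3.94 log2 units, with 23 of 24 higher on replicate 3. As uncentred signals, Pth1r was 2.06 times as high on replicate 3 as on replicate 1, against 11.4 times for the summed markers. On replicate 2 Pth1r was 1.09 times as high as on replicate 1, against 3.64 times for the markers. Distances were taken between the 3 deviations of Pth1r and the median ones of each of the 9 marker lists. Pth1r lay nearest to the intercalated cell (0.45), leukocyte (0.51) and distal convoluted and connecting tubule lists (0.60). It lay farthest from the proximal tubule list (2.23 log2 units). That list, whose medians differed most between arrays, was the farthest for each of the 6 receptors, from 2.04 for Adrb1 to 4.60 for Glp1r, so this is not particular to Pth1r.

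On replicate 1, where 2 of the 24 proximal tubule markers lay above the cutoff, Pth1r was 3.65 times the cutoff. On replicate 2, where 13 of the 24 did, it was 4.05 times the cutoff, and on replicate 3, with 18 of 24, 7.48 times. Without replicate 3, Pth1r was 1.94 log2 units above the cutoff and was still detected. The part of other cells in the higher signal on replicate 3 was not tested. Principal cell markers and the 3' to 5' ratio of Actb were also highest on that array.

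The calcitonin receptor lay at the limit of detection. Calcr probe set 1387488_a_at had signals of 625, 439 and 436 units on replicates 1, 2 and 3, a mean of 499.7 ± 108 (SD, n = 3). These were 1.47, 1.06 and 1.02 times the cutoff of their array, so 2 of the 3 lay barely above it. The mean log2 signal was 0.22 ± 0.16 (SE) above the cutoff, and the test did not pass (limma, adjusted p = 0.275).

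The second Calcr probe set, 1387487_a_at, had 205, 235 and 59.2 units, all below the cutoff, with the lowest on replicate 3. The side of the cutoff on which Calcr fell depended on the list that set it. With the cutoff at the 90th percentile Calcr was detected (1.24 log2 units above, limma adjusted p = 0.00461, beside 61.8% of all genes), and with the muscle gene Myh1 counted among the other-tissue genes its mean lay below the cutoff (-0.052). A call of not detected does not show that the transcript is absent.

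The receptors of glucagon-like peptide 1 and of beta-1 agonists were not detected. Adrb1, the receptor of noradrenaline and adrenaline, had signals of 59.2, 253 and 178 units on replicates 1, 2 and 3 (mean difference from the cutoff -1.61 log2 units, limma adjusted p = 1). Replicate 1 was well below the others. The median of every marker list other than TAL was also lowest on replicate 1, and the part of other cells in Adrb1 was not tested. Glp1r had 67.7, 14.3 and 14.7 units (mean difference -4.12 log2 units, limma adjusted p = 1), with replicate 1 the highest. Both genes varied widely between arrays, with an SD of 1.09 log2 units for Adrb1 and 1.28 for Glp1r, against 0.22 for Avpr2 and 0.29 for Gcgr. At so low a level these differences between arrays are not measured folds.

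**Figure D2:**
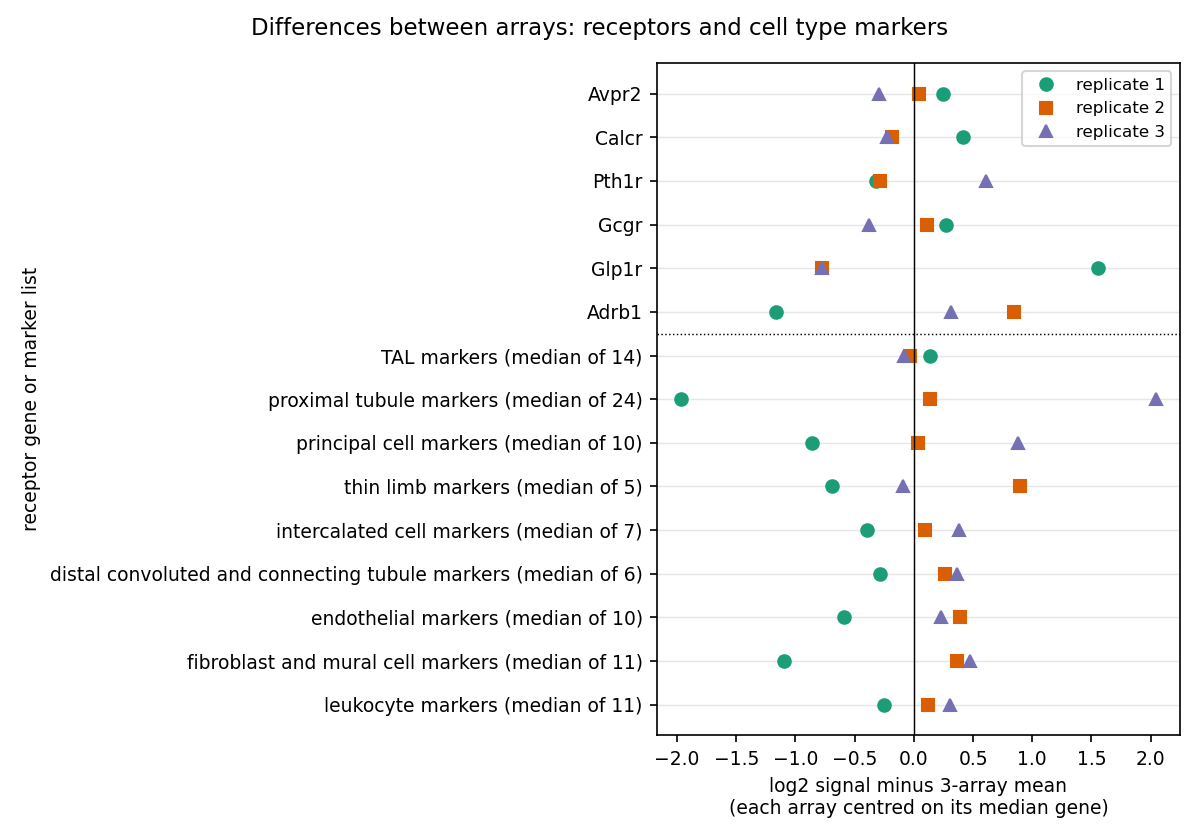
Log2 signal on each array minus the mean of the 3 arrays (horizontal axis), each array centred on its median gene, for the 6 receptors by their probe set with the higher mean (above the dotted line) and for the median gene of each marker list (below it). Avpr2 and Gcgr are lowest on replicate 3, at -0.30 and -0.38, and Pth1r is highest there, at 0.61. Proximal tubule markers run from -1.97 on replicate 1 to 2.04 on replicate 3.

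The receptors thus fell on different sides when the arrays were compared, as the plot of deviations from the 3-array mean shows. Avpr2, Gcgr and Calcr were highest on replicate 1, with deviations of 0.25, 0.27 and 0.41 log2 units. Avpr2 and Gcgr were lowest on replicate 3, at -0.30 and -0.38, while Calcr was nearly equal on replicates 2 and 3, at -0.19 and -0.23. The median TAL marker was likewise highest on replicate 1 (0.13) and lowest on replicate 3 (-0.08). This order was not particular to TAL markers. The median listed G protein subunit had 0.10 on replicate 1 and -0.06 on replicate 3, and the median cyclic AMP effector 0.10 and -0.08. Pth1r had the opposite placing, at -0.32 on replicate 1 and 0.61 on replicate 3. The sign of replicate 3 minus replicate 1 was the same for each of the 6 receptors with quantile normalization, a common 75th percentile, a pseudocount and no centring. The common 75th percentile and no centring move every gene alike (Avpr2 from -0.54 to -0.43 with each), and a pseudocount shrinks differences. These settings are therefore hardly a test of the sign. Adrb1 and Glp1r lay too low for their differences to be measured folds. Since each array is a single preparation, these placings have no replicate test.

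Among 210 genes of the pathway and marker lists, those whose 3 deviations lay nearest to each receptor's were named, as a description over 3 arrays. Nearest to Avpr2 were the TAL marker Tmem72, at a distance of 0.04 log2 units, the olfactory-type G protein subunit Gnal (0.05) and the cyclic AMP-activated exchange factor Rapgef3 (0.08), of which Tmem72 was detected. Nearest to Gcgr were the TAL transcription factor Irx2 (0.06), the G protein subunit Gnb1 (0.10) and the phosphodiesterase Pde4d (0.10), of which Pde4d was not detected. Nearest to Calcr were Vipr2 (0.05), the fibroblast and mural cell marker Cspg4 (0.11) and the kinase subunit Prkar2a (0.13). Of these, Vipr2 was not detected. Nearest to Pth1r were the distal convoluted and connecting tubule marker Klk1 (0.15), the proximal tubule anion transporter Slc22a8 (0.21) and the leukocyte gene Ptprc (0.24). None of these was detected.

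The nearest genes to Adrb1 were the fibroblast and mural cell markers Pdgfrb (0.15) and Des (0.22) and the adenylyl cyclase Adcy3 (0.23). For Glp1r they were Htr7 (0.59), Adcyap1r1 (0.90) and Adcy10 (0.94). All the genes nearest to Adrb1 and Glp1r lay below the cutoff. Over 3 arrays such likeness is only a weak description.

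Transcripts of the ligands were not detected in the preparation, and neither were those of other receptors coupled to Gs. Of 9 measured genes of peptide precursors and catecholamine synthesis, 0 were detected by limma, and 0 had an unadjusted p under 0.05. The lowest was Pth, the gene of parathyroid hormone, at 4.34, 6.24 and 39.3 units. Of 24 other Gs-coupled receptors, 0 were detected by limma and 0 had an unadjusted p under 0.05, with the prostaglandin receptor Ptger2 lowest at 12.5, 15.2 and 6.81 units. The median log2 signal minus the cutoff of these other receptors was -2.97, and 51.8% of all genes were detected.

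Receptors that couple to Gi, which opposes adenylyl cyclase, included genes with high signals. Of 11 measured, 3 were detected (27.3%, beside 51.8% of all genes), the prostaglandin E2 receptor Ptger3 (13250 ± 1258 units, SD, n = 3), the calcium-sensing receptor Casr (9308 ± 3004) and the sphingosine 1-phosphate receptor S1pr1 (2277 ± 1705). Ptger3 and Casr were also on the list of TAL markers. S1pr1 was not, and its signals differed widely, at 733, 4107 and 1992 units on replicates 1, 2 and 3 (limma, adjusted p = 0.0315). The lowest was Adra2c, an adrenergic receptor, at 9.48, 4.96 and 14.0 units.

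**Figure D3:**
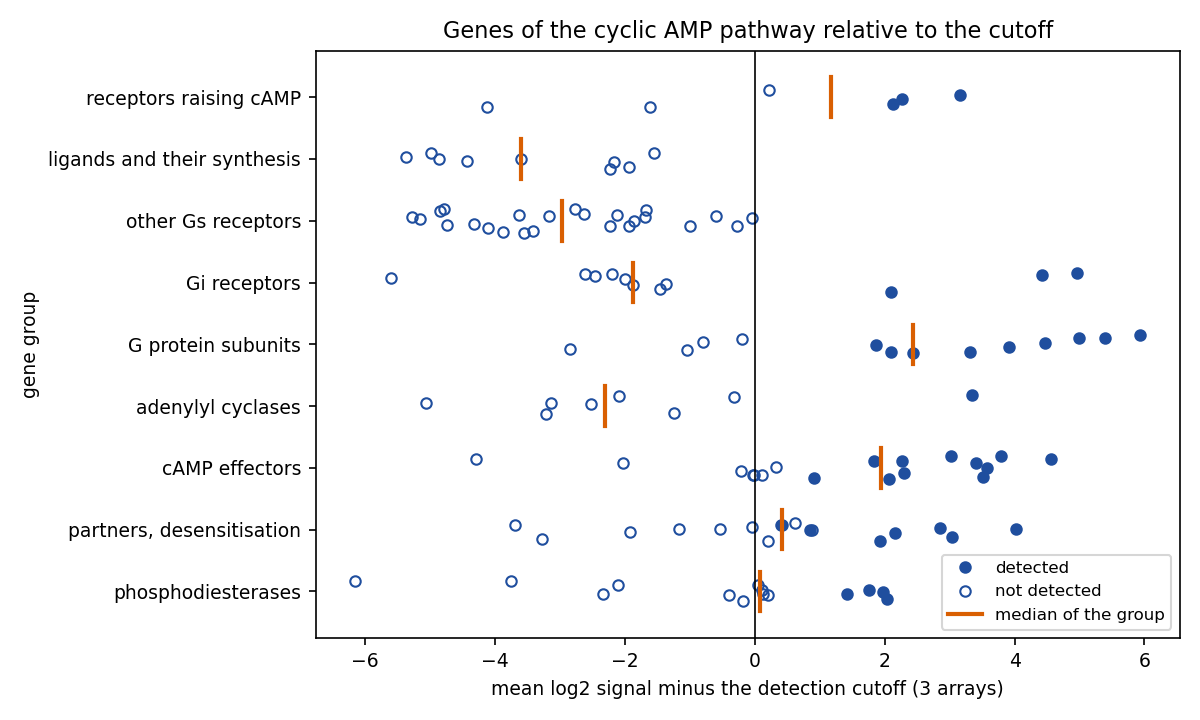
Mean log2 signal minus the detection cutoff (horizontal axis, 3 arrays) for each measured gene of 9 groups of the cyclic AMP pathway. Filled points are detected genes, open points are not detected, and orange bars are group medians. Of the 6 receptors 3 are filled, and of the 13 G protein subunits 9 are, with a median at 2.43.

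Most measured G protein subunits and cyclic AMP effectors were detected, and 1 adenylyl cyclase was. The share of all genes was 51.8%. Of 13 G protein subunits 9 were detected (69.2%), with the alpha subunit of Gs, Gnas, at 26014 ± 3017 units and the gamma subunits Gng5 and Gng12 at 17747 ± 341 and 13454 ± 364 (SD, n = 3). The lowest was the neuronal alpha subunit Gnao1 (65.7 ± 31.6). Of 8 adenylyl cyclases 1 was detected (12.5%), Adcy6, at 3963, 4695 and 4218 units, and the lowest was Adcy8, at 4.99, 7.57 and 54.6. Of 18 cyclic AMP effectors 11 were detected (61.1%), led by the regulatory subunit of protein kinase A Prkar1a (9918 ± 179), the transcription factor Atf1 (5839 ± 319) and the catalytic subunit Prkacb (5034 ± 203). The kinase inhibitor Pkib was lowest (34.9 ± 34.0).

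Genes that bind, sort, desensitise or end the signal of such receptors were detected in part. Of 17 receptor partners 8 were detected (47.1%, beside 51.8% of all genes). They were led by the retromer subunit Vps35 (6845 ± 540), the scaffold Nherf1, which binds Pth1r (3481 ± 533), and the receptor kinase Grk6 (3067 ± 409). The receptor kinase Grk3 was lowest (37.4 ± 22.4). The RAMP genes, whose products turn the calcitonin receptor into a receptor for amylin, were named after their values were seen: 0 of 3 were detected by limma, with Ramp2 nearest (818 ± 302, adjusted p = 0.0547). Of 14 phosphodiesterases, which break down cyclic AMP, 4 were detected (28.6%, beside 51.8% of all genes). The detected ones were led by Pde1a (1815 ± 638), Pde4c (1673 ± 286) and Pde8a (1440 ± 204). Of the 14, Pde3a was lowest (6.57 ± 3.81).

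Over all 8 groups, 36 of 114 pathway genes were detected, or 31.6%, beside 51.8% of all genes. The median pathway gene had a log2 signal minus the cutoff of -0.70. The other Gs-coupled receptors, many of them known mainly from brain, gonads or gut, made up 24 of the 114.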

How the data were processed

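The files held linear intensity values as deposited by the authors, with 1 value for each probe set on each array. Biotin-labelled cRNA was prepared for Affymetrix arrays, per the labels' protocols. How probe signals were summarised and whether arrays were normalized is not given in the sources used here. All values were positive, and log2 was taken with no pseudocount and no further scaling.

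Of 31099 probe sets, 57 were controls, and the platform annotation gave 1 gene to 20826, several to 436 and none to 9780. RefSeq's gene table of the rat assembly GRCr8 held the gene identifiers of 20758 and changed 0 symbols. The log2 signal minus each array's cutoff was tested above 0 (one-sided) with limma 3.58.1 in R 4.3.3 over all 20826 probe sets, adjusted by Benjamini and Hochberg. The probe set of highest mean log2 signal stood for its gene. Myh1 was kept out of the other-tissue genes, since its lowest signal, on replicate 3, was 39684 units. On each array the cutoff fell between a pair of genes (among Lhb, Nrgn and Tnni2) with signals from 388 to 509.6 units, so it depends on few genes.

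Named were all receptors, of each pathway group the 3 detected genes with the highest signal and the 1 lowest, the 3 genes nearest each receptor, and, chosen after their values were seen, Aqp2 and Ramp2. The members and lists were chosen with earlier results of these data known. Of the other-tissue genes and lists, entries without a measured match were not analysed here. No label says that the samples came from separate rats, so p-values cover only the spread among these samples, possibly a technical one. The number of arrays limits the precision. The other marker lists had detected counts, beside 51.8% of all genes, of 4 of 5 (thin limb) and 8 of 10 (endothelial). Fibroblast and mural cell markers had 2 of 11, leukocyte markers 3 of 11 and proximal tubule markers 2 of 24. Intercalated cell markers had 0 of 7 by limma, with 1 at an unadjusted p under 0.05. Distal convoluted and connecting tubule markers had 0 of 6 by limma, with 0 at an unadjusted p under 0.05. Of the 76 other-tissue genes 3 were detected. Their own 95th percentile set the cutoff, so that count was largely fixed in advance.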

Additional observations from a re-analysis of the deposited data

How the results depend on the processing

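The counts of detected receptors were 3 genes and 3 probe sets under quantile normalization, a pseudocount of 16 and Myh1 among the other-tissue genes. The shares of all genes under these settings were 51.7%, 52.1% and 47.7%. The receptor counts were the same with a variance trend (chosen after seeing the data), beside 52.7% of all genes. They were also the same without replicate 1, 2 or 3, beside 49%, 48% and 48.5% of all genes. Tests only of probe sets above the median gave the same counts, beside 83.6% of all genes so tested, a filter that left out the lower receptor probe sets. A common 75th percentile also gave them, but it shifts an array and its cutoff alike, so its result could not differ. One probe set per gene in the fit also gave 3 genes, beside 52.4% of all genes. The pathway count ranged from 31 to 34 with an array left out, against 36. The share of all genes fell likewise, to 48% to 49%, against 51.8%. The level of the cutoff moved the counts. At the 90th percentile, 4 receptor genes, 4 receptor probe sets and 53 pathway genes were detected, beside 61.8% of all genes. At the 99th percentile, 1 receptor gene, 1 receptor probe set and 20 pathway genes were detected, beside 25.5% of all genes; Avpr2 (0.47) and Pth1r (0.61 log2 units above) were no longer called, and Calcr 1387488_a_at lay at -1.43. With Myh1 in the list it lay at -0.052. At the highest TrpnX control, a transcript not added to samples, 5 receptor genes, 8 receptor probe sets and 81 pathway genes were detected, beside 77.8% of all genes. The values there were 1.46 for Adrb1, 1.90 for Avpr2 1371265_at, 1.25 for Pth1r 1375789_at, 1.49 for Calcr 1387487_a_at and 3.28 for Calcr 1387488_a_at. These shifts follow from the height of the cutoff itself. No paired analysis was possible because there was 1 group. Signals near the cutoff, such as that of Calcr, limit what can be called.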
